A study of Mus musculus with 18 samples.

Results

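The genes described here are 31 mouse genes of cholesterol and fatty acid synthesis, 31 of the 54347 genes in the deposited table. They form a list of named pathway genes, with no measured value in the rule: 18 enzymes of sterol synthesis, 5 regulators of that pathway, 3 genes of sterol transport and efflux, and 5 genes of fatty acid synthesis. They were measured in leukemia stem cells, the leukemic cells that sustain the disease, sorted by flow cytometry out of C57BL/6JRj bone marrow on day 30 of induced leukemia. The mutant group held 5 mice of the genotype labelled Prx1-Cxcl12-mutant (mice 6, 7, 8, 10 and 12). The control group held 4 mice labelled wild type and Prx1-Cxcl12-Ctrl (mice 1, 2, 3 and 4). All 9 mice carried leukemia, and 7000 cells were taken from each. The Prx1 promoter is active in mesenchymal cells of the limb skeleton and Cxcl12 is a chemokine made by such stromal cells, so the sorted cells are not the cells in which that promoter acts. The sources used here do not state the alleles, how the leukemia was driven, the sorting markers, or the age or sex of the animals.

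Each mouse gave 2 technical libraries of 3′ transcript ends (MARS-seq adapted to bulk RNA), which were summed, so that the mouse is the replicate. Levels are given as CPM, a gene's counts scaled to a common library total after TMM normalization,, fold changes are mutant over control on the log2 scale with a standard error (SE), and p-values come from edgeR's quasi-likelihood test across all tested genes with Benjamini-Hochberg adjustment. Summed libraries held 20734169 ± 4170604 counts in mutant mice (SD, n = 5) and 15160656 ± 2307734 in control mice (SD, n = 4), and a level of 3 counts was worth between 0.12 and 0.237 CPM. Of the markers of myeloid leukemia cells, such as Mpo, Kit and Hoxa9, 9 of 9 passed the filter on low counts. Their summed level was 8910 to 17300 CPM in mutants and 9580 to 11400 CPM in controls, most of it from Prtn3, Ctsg and Elane. Of these 9 markers 4 had a fold change above 0 and 5 below. Kit was at 19.0 ± 2.45 CPM in mutants (SD, n = 5) and 25.6 ± 1.99 CPM in controls (SD, n = 4). Its log2 fold change was -0.43 (SE 0.11, edgeR adjusted p = 0.254). In Kit every mutant was below every control, as for 2.13% of all tested genes. Markers of B cells summed to 42.8 to 63.6 CPM in mutants and 48.3 to 69.6 CPM in controls, and those of T and NK cells to 102 to 194 CPM in mutants and 89.3 to 144 CPM in controls. Erythroid markers summed to 11.5 to 55.3 CPM in mutants and 4.86 to 49.6 CPM in controls. Stromal and adipocyte markers summed to 1.16 to 2.61 CPM in mutants and 0.831 to 1.42 CPM in controls, with Pdgfra, Prrx1, Adipoq and Plin1 at 3 counts or fewer in every mouse.

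Cells build cholesterol from acetyl-CoA. Condensation of acetyl units leads to mevalonate, mevalonate is turned into isoprene units, these are joined into squalene, squalene is closed into the ring of lanosterol, and a series of late enzymes trims lanosterol to cholesterol. The transcription factor SREBP2 (gene Srebf2) drives these enzymes and SREBP1 (Srebf1) leans towards fatty acid synthesis. Both precursors sit in the endoplasmic reticulum, where the escort protein SCAP carries them to the Golgi for cleavage when sterol is low and the INSIG proteins hold them back when sterol is high. Oxidised sterols activate the LXR receptors, which turn on the exporters encoded by Abca1 and Abcg1. In bone marrow cells these exporters are known for restraining the growth of stem and progenitor cells in mice.

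SREBP proteins bind sterol regulatory elements near the start of their target genes, usually beside a CCAAT box bound by NF-Y. The promoter sequences of RefSeq (assembly GRCm38.p6), of which the 250 bases before each start were read, held an entry for 24 of the 31 genes. Promoters of 3 genes are shown, each picked for a different reason. Hmgcs1 was the only one of the 24 genes with an entry to hold the spelling TCACNCCAC, Mvk was the only gene whose mutant mice all lay above all control mice, and Fasn is the synthase of the fatty acid arm. Capitals mark CCAAT on either strand (read as ATTGG where it lies on the other strand) and TCACNCCAC on either strand.
Hmgcs1, chr13:119690101-119690350, plus strand: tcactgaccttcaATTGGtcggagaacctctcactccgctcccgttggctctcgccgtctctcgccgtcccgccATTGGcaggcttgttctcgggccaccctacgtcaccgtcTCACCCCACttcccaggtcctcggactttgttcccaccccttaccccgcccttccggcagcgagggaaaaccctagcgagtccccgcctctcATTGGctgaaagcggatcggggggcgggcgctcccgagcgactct
Mvk, chr5:114444019-114444268, plus strand: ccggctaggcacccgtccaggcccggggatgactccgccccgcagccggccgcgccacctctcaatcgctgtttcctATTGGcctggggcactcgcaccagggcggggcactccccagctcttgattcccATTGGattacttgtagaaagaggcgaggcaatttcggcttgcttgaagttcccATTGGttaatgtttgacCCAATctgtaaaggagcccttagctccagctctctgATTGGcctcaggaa
Fasn, chr11:120824548-120824797, minus strand: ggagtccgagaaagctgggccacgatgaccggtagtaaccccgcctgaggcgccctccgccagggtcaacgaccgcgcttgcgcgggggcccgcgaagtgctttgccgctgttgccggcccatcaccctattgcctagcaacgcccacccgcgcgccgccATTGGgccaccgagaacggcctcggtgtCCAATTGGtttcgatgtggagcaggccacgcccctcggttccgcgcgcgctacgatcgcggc

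TCACNCCAC was found in 1.05% of all 32851 promoters of the same length, and in Hmgcs1 it began 137 bases before the start. The shorter CACNCCAC, which lies within it, was found in 5.29% of all promoters and in those of Acat2, Hmgcs1 and Insig1. CCAAT was found in 33.8% of all promoters, in 20 of the 32 promoters of the set (62.5%) and in 14 of 18 promoters of sterol enzymes (77.8%). Some genes have more than 1 promoter: the 32 belonged to 24 genes, and the 18 to 15 sterol enzyme genes, of which 14 held CCAAT. The sterol enzyme genes Fdps, Fdft1 and Sqle had no entry. The Mvk promoter held 5 copies of CCAAT, 1 on the gene's strand and 4 on the other. A match of letters describes the window and shows no binding.

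No gene of the set passed the test between mutant and control cells. Of the 31 genes, 29 had enough counts to be tested, and 0 were called at an adjusted p under 0.05 by edgeR, as well as 0 by DESeq2 and 0 by limma-voom. Over the whole table edgeR called 0.0694% of 12973 genes, 0.0231% as higher and 0.0462% as lower in mutants. At an unadjusted p under 0.05 the set held 2 genes, the kinase gene Mvk (higher in mutants) and the exporter gene Abcg1 (lower in mutants), which is 2 of 29, against 9.85% of all tested genes (4.96% higher and 4.89% lower). The log2 fold change was above 0 for 18 genes and below 0 for 11, with a median of 0.06, beside a median of 0.01 and 51.7% above 0 for all tested genes.

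The size of a change that these data leave possible was bounded gene by gene. For 20 of the 29 tested genes (69.0%) the 95% interval of the fold change lay within 1.5-fold in both directions, and for 26 (89.7%) within 2-fold. Over all tested genes these shares were 60.8% and 84.2%. Each of the 18 sterol enzymes had its interval within 2-fold. The genes whose interval reached past 2-fold were Insig1, Abcg1 and Elovl6.

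**Figure D1:**
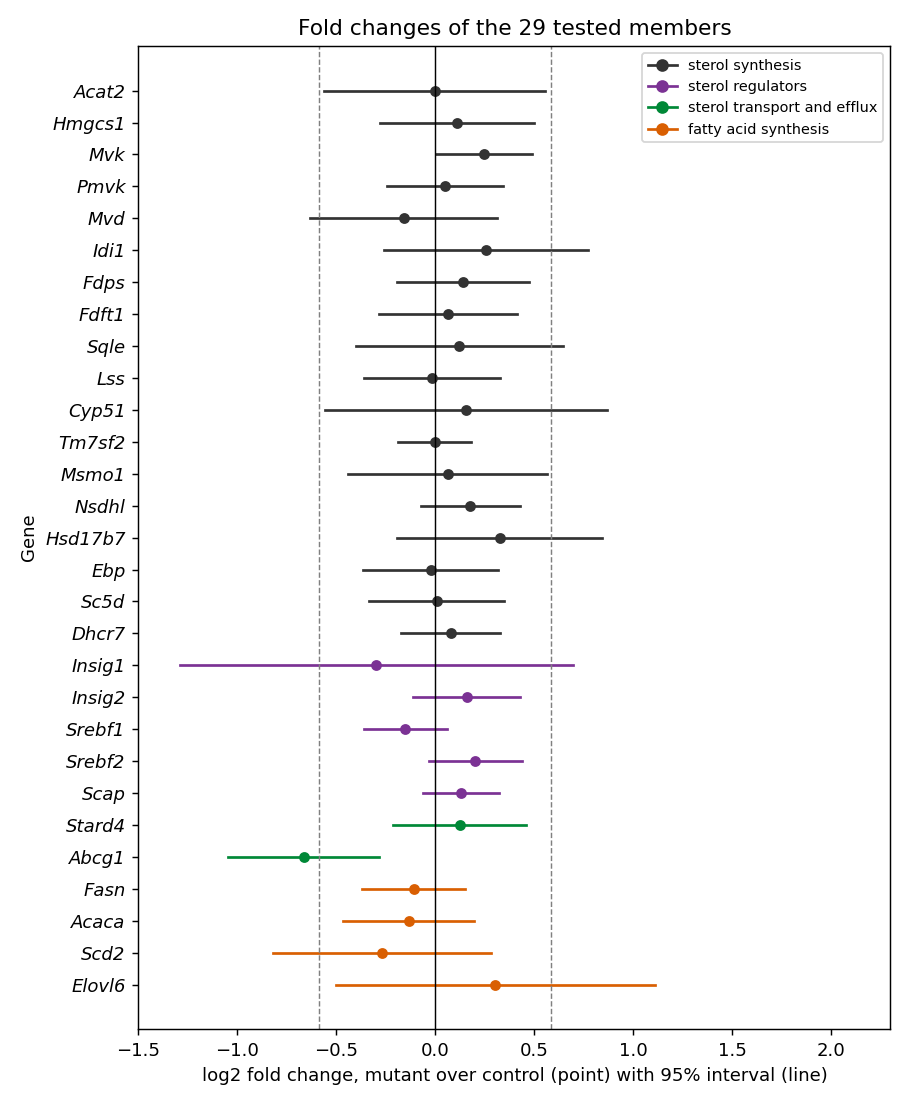
Log2 fold change of each of the 29 tested genes, mutant over control, with its 95% interval as a line. The horizontal axis is the log2 scale, the dashed lines mark 1.5-fold in each direction, colours mark the 4 gene groups, and Abcg1 is the gene farthest from 0 at -0.66.

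Of the 18 sterol enzymes 13 had a fold change above 0, between -0.16 and 0.33 with a median of 0.07, and 1 had an unadjusted p under 0.05. The 7 enzymes of the mevalonate steps, Acat2, Hmgcs1, Mvk, Pmvk, Mvd, Idi1 and Fdps, had a median of 0.11. Acat2 makes the first condensation product and Hmgcs1 adds a further acetyl unit; their log2 fold changes were -0.003 (SE 0.26) and 0.11 (SE 0.18). Pmvk, the kinase after Mvk, was at 0.05 (SE 0.14).

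Mvk (ENSMUSG00000041939, GRCm38 chromosome 5, 114444269 to 114460591) encodes mevalonate kinase, which phosphorylates mevalonate. It had 26.3, 21.4, 19.1, 20.3 and 19.5 CPM in mutant mice 6, 7, 8, 10 and 12, against 17.3, 17.9, 18.9 and 17.7 CPM in control mice 1, 2, 3 and 4. Every mutant mouse was above every control mouse, though mutant 8 was close to control 3, and the groups were 21.3 ± 2.94 CPM (SD, n = 5) in mutants and 18 ± 0.663 CPM (SD, n = 4) in controls. It was the only tested gene of the set whose groups did not overlap, an arrangement with all mutants above that 1.87% of all tested genes had. The log2 fold change was 0.25 (SE 0.11, edgeR p = 0.0455, adjusted p = 0.494). It was 0.07 in the first technical libraries alone and 0.39 in the second alone, and 0.16 without mutant 6.

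Idi1 encodes the isomerase that interconverts the isoprene units. Its levels were 16.9, 35.5, 15.7, 14.7 and 18.6 CPM in mutants 6, 7, 8, 10 and 12, against 17.5, 14.8, 15.5 and 20.3 CPM in controls 1, 2, 3 and 4. Mutant 7 stood well above the other 8 mice, which overlapped. The log2 fold change of 0.26 (SE 0.24, edgeR p = 0.303) was -0.05 without mutant 7.

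Fdps, the synthase of farnesyl diphosphate, showed the same single high mouse on a smaller scale. It had 146, 201, 125, 113 and 152 CPM in mutants 6, 7, 8, 10 and 12, against 116, 130, 133 and 156 CPM in controls 1, 2, 3 and 4. Its log2 fold change was 0.14 (SE 0.15, edgeR p = 0.377), and 0.0033 without mutant 7. Mvd, the decarboxylase before Idi1, had 3.03, 5.06, 4.01, 2.39 and 3.79 CPM in mutants 6, 7, 8, 10 and 12, against 3.71, 3.86, 4.09 and 4.74 CPM in controls 1, 2, 3 and 4. The Mvd groups overlapped, at a log2 fold change of -0.16 (SE 0.22, edgeR p = 0.474).

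The 3 enzymes that make squalene and close it to lanosterol had a median log2 fold change of 0.06. Fdft1, squalene synthase, was at 17.3 ± 3.8 CPM in mutants (SD, n = 5) and 16.5 ± 1.78 CPM in controls (SD, n = 4). Sqle, squalene epoxidase and an oxygen-dependent control point of the pathway, was at 4.45 ± 1.14 CPM in mutants and 4.11 ± 1.15 CPM in controls. Lss, lanosterol synthase, was at 12.1 ± 2.77 CPM in mutants and 12.2 ± 0.462 CPM in controls. None of the 3 had a difference as large as the spread between mice.

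The 8 enzymes between lanosterol and cholesterol had a median log2 fold change of 0.07. Nsdhl, a dehydrogenase of the demethylation complex, had 16.9, 19.7, 14.4, 15.3 and 14.9 CPM in mutants 6, 7, 8, 10 and 12, against 14.8, 15, 14.1 and 13.7 CPM in controls 1, 2, 3 and 4. Mutants 6, 7 and 10 were above all controls and mutants 8 and 12 were not, and the log2 fold change was 0.18 (SE 0.12, edgeR p = 0.15). Hsd17b7, the ketoreductase of that complex, had 5.07, 7.47, 4.47, 4.18 and 8.12 CPM in mutants 6, 7, 8, 10 and 12, against 5.84, 3.5, 5.24 and 4.21 CPM in controls 1, 2, 3 and 4. Mutants 7 and 12 were the high mice, and the log2 fold change of 0.33 (SE 0.24, edgeR p = 0.199) was the largest of the 18 enzymes.

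Msmo1, the methyl oxidase of that complex, had 6.11, 14.3, 6.89, 7.06 and 7.12 CPM in mutants 6, 7, 8, 10 and 12, against 8.29, 7.6, 7.7 and 8.35 CPM in controls 1, 2, 3 and 4. The other 4 mutants lay below every control while mutant 7 lay above every control, so that the log2 fold change was 0.06 (SE 0.23) with mutant 7 and -0.23 without it. Cyp51, the demethylase that acts on lanosterol, was likewise highest in mutant 7, at 4.35, 11.7, 5.85, 3.42 and 6.94 CPM in mutants 6, 7, 8, 10 and 12, against 8.06, 3.98, 4.9 and 6.46 CPM in controls 1, 2, 3 and 4. Its log2 fold change was 0.16 (SE 0.33), and -0.18 without mutant 7. The remaining late enzymes were near 0: Tm7sf2, a sterol reductase, at -0.003 (SE 0.09), the isomerase Ebp at -0.02 (SE 0.16), the desaturase Sc5d at 0.01 (SE 0.16) and the final reductase Dhcr7 at 0.08 (SE 0.12). In the GENCODE annotation Ctsb overlaps Fdft1 and Akap9 overlaps Cyp51 on the opposite strand, and Vps51 overlaps Tm7sf2 on the same strand. Other annotated genes overlap Fdps on the same strand, and Hmgcs1, Mvd, Idi1 and Lss on the opposite strand. The values of all these enzymes are uncertain to the extent that reads were shared.

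**Figure D2:**
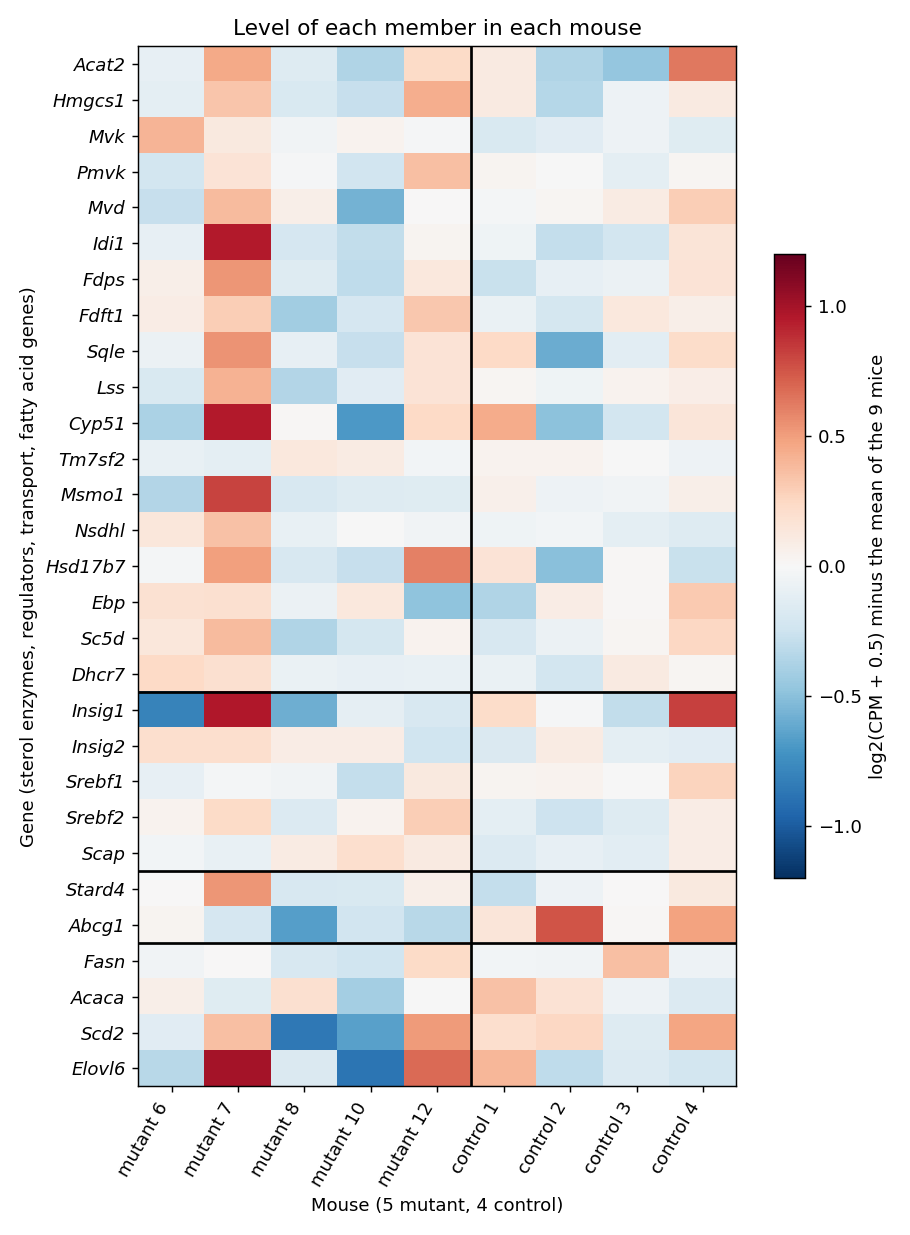
Level of each tested gene in each mouse, as log2 CPM (with 0.5 added) less the mean of the 9 mice, mutant mice in the left columns and control mice in the right columns. Mutant 7 is the highest mouse in 9 of the 18 sterol enzymes, and no block of rows separates the groups.

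Among the 5 regulators the median log2 fold change was 0.13 and none had an unadjusted p under 0.05. Srebf2 had 52.6, 60.2, 45.6, 52.7 and 62.9 CPM in mutants 6, 7, 8, 10 and 12, against 47.1, 43.0, 45.8 and 54.4 CPM in controls 1, 2, 3 and 4. Mutants 7 and 12 were above all controls and mutant 8 lay among the low controls, with a log2 fold change of 0.20 (SE 0.11, edgeR p = 0.0847, adjusted p = 0.558). Srebf1 had 56.4, 59.7, 58.8, 49.6 and 65.8 CPM in mutants 6, 7, 8, 10 and 12, against 61.9, 62.2, 60.3 and 73.1 CPM in controls 1, 2, 3 and 4. Only mutant 12 reached into the control range, and the log2 fold change was -0.15 (SE 0.10, edgeR p = 0.146, adjusted p = 0.63). The microRNA gene Mir33 lies within Srebf2, and Rai1 overlaps Srebf1 on the opposite strand, and the sources used here do not state whether counting used strand.

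Scap had 59.9, 57.6, 65.7, 70.5 and 65.8 CPM in mutants 6, 7, 8, 10 and 12, against 54.7, 57.2, 56.1 and 65.2 CPM in controls 1, 2, 3 and 4. All but control 4 were below every mutant, at a log2 fold change of 0.13 (SE 0.09, edgeR p = 0.167). Insig2, the INSIG gene that is not strongly induced by SREBP, had 14.1, 14.1, 13.0, 13.0 and 10.3 CPM in mutants 6, 7, 8, 10 and 12, against 10.8, 13.1, 11.2 and 11.1 CPM in controls 1, 2, 3 and 4, at a log2 fold change of 0.16 (SE 0.12, edgeR p = 0.224). Insig1, itself an SREBP target, was low in all mice, at 0.716, 3.65, 0.919, 1.47 and 1.36 CPM in mutants 6, 7, 8, 10 and 12, against 1.97, 1.6, 1.23 and 3.26 CPM in controls 1, 2, 3 and 4. Mutant 7 was again the high mutant, and the log2 fold change of -0.30 (SE 0.46, edgeR p = 0.526) was -0.86 without mutant 7 and 0.05 without control 4.

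The lowest p of the set belonged to the sterol exporter Abcg1 (ENSMUSG00000024030, GRCm38 chromosome 17, 31057675 to 31117988). It had 14, 11.8, 8.44, 11.6 and 10.7 CPM in mutants 6, 7, 8, 10 and 12, against 15.1, 23.3, 13.8 and 19.3 CPM in controls 1, 2, 3 and 4. The groups touched at mutant 6 and control 3, and averaged 11.3 ± 2.02 CPM in mutants (SD, n = 5) and 17.9 ± 4.3 CPM in controls (SD, n = 4). The log2 fold change was -0.66 (SE 0.18, 95% interval -1.05 to -0.28), with an edgeR p of 0.00252 and an adjusted p of 0.254. It was -0.66 in the first and -0.65 in the second technical libraries alone, and between -0.77 and -0.51 when any 1 mouse was left out. The DESeq2 adjusted p was 0.0532, the lowest of a range that reached 0.982 over the alternatives.

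Macrophages are a known site of high Abcg1 expression. Of 9 macrophage markers 2 were tested, and their summed level was 43.0 to 81.2 CPM in mutants and 58.0 to 74.3 CPM in controls, with Mrc1 and Mertk at 3 counts or fewer in every mouse. The marker Adgre1 was at 27.8 ± 3.64 CPM in mutants (SD, n = 5) and 40.1 ± 4.92 CPM in controls (SD, n = 4), a log2 fold change of -0.53 (SE 0.12, edgeR adjusted p = 0.176). Every mutant was below every control, as for 2.13% of all tested genes. The other tested marker, Vcam1, had the opposite sign, at 33.0 ± 13.4 CPM in mutants and 27.6 ± 5.81 CPM in controls (log2 fold change 0.26, SE 0.26, edgeR adjusted p = 0.772). C1qa, C1qb and C1qc, too low to test, averaged 0.181, 0.363 and 0.209 CPM in mutants, against 0.0691, 0.158 and 0.0296 CPM in controls. Markers of late neutrophils summed to 159 to 357 CPM in mutants and 367 to 763 CPM in controls, but 4 of the 8 had a fold change above 0 and 4 below. The largest single part of that sum was Camp, at 139 ± 47.7 CPM in mutants and 386 ± 129 CPM in controls (log2 fold change -1.47, SE 0.27, edgeR adjusted p = 0.115), while Ltf was at 13.5 ± 4.43 CPM in mutants and 4.82 ± 3.67 CPM in controls (1.47, SE 0.39, edgeR adjusted p = 0.259). The part of macrophage or neutrophil RNA in the level of Abcg1 was not tested. In sorted bulk RNA, fewer cells of a type and less RNA per cell cannot be told apart.

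Abca1, the other LXR-driven exporter, was at or below the floor of 3 counts in each mouse, with 0, 0, 3, 0 and 0 counts in mutants 6, 7, 8, 10 and 12, against 0, 2, 1 and 0 counts in controls 1, 2, 3 and 4, so no fold is given. Stard4, which moves cholesterol between membranes inside the cell, had 22.7, 33.0, 19.8, 19.9 and 23.8 CPM in mutants 6, 7, 8, 10 and 12, against 18.5, 21.7, 22.7 and 24.7 CPM in controls 1, 2, 3 and 4. Mutant 7 was the highest mouse, and the log2 fold change was 0.12 (SE 0.15) with it and -0.02 without it.

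**Figure D3:**
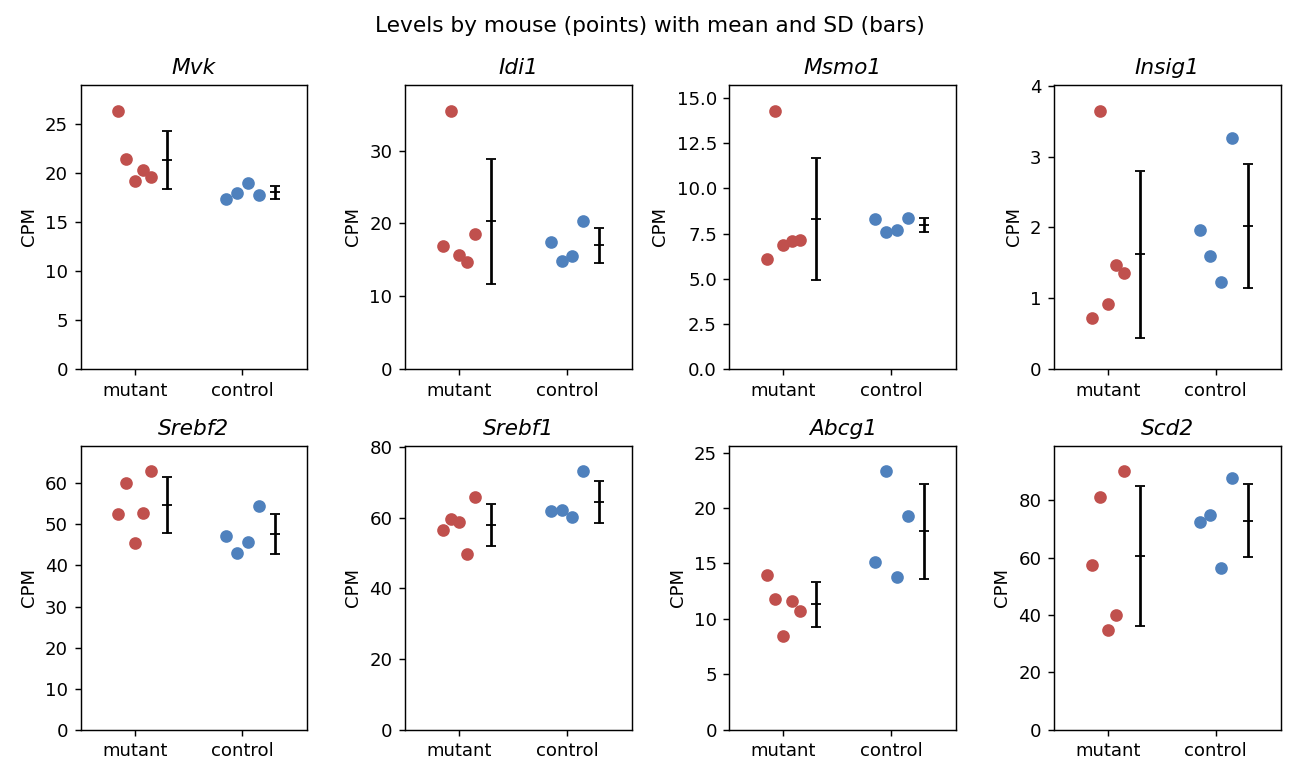
Level in CPM of selected genes in each mouse, mutant mice left and control mice right, 1 point per mouse with a tick at the group mean and a bar of 1 SD to each side; each vertical axis starts at 0. Mvk is the gene without overlap, Abcg1 lies lower in mutants with a touch of the groups, and single high mutants (mouse 7) stand out in Idi1, Msmo1 and Insig1.

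Of the 4 tested fatty acid genes 3 had a fold change below 0, with a median of -0.12, and none had an unadjusted p under 0.05. That median was 0.03 in the first technical libraries alone and -0.26 in the second alone. Acaca, the carboxylase that makes malonyl-CoA, had 12.1, 10.4, 13.2, 8.59 and 11.5 CPM in mutants 6, 7, 8, 10 and 12, against 14.8, 13.1, 11 and 10.2 CPM in controls 1, 2, 3 and 4, at -0.14 (SE 0.15, edgeR p = 0.392). Fasn, the synthase that extends the chain to palmitate, had 48.6, 50.4, 43.9, 42.5 and 58.8 CPM in mutants 6, 7, 8, 10 and 12, against 49.0, 48.8, 64.6 and 48.2 CPM in controls 1, 2, 3 and 4. The Fasn groups overlapped and control 3 was the highest mouse, at a log2 fold change of -0.11 (SE 0.12, edgeR p = 0.385) that was 0.01 without control 3.

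Scd2 and Scd1 encode desaturases that place the first double bond in fatty acids. Scd2 had 57.4, 81, 34.6, 39.9 and 90.0 CPM in mutants 6, 7, 8, 10 and 12, against 72.4, 74.7, 56.5 and 87.8 CPM in controls 1, 2, 3 and 4. Mutants 8 and 10 were the lowest of all mice and mutant 12 the highest, at a log2 fold change of -0.27 (SE 0.25, edgeR p = 0.311). Scd1 had 0, 2, 0, 1 and 1 counts in mutants 6, 7, 8, 10 and 12 and 0 counts in every control, at or under the floor, so no fold is given. Elovl6, the elongase of palmitate, had 3.64, 9.91, 4.13, 2.34 and 7.89 CPM in mutants 6, 7, 8, 10 and 12, against 6.4, 3.74, 4.15 and 3.97 CPM in controls 1, 2, 3 and 4. Mutants 7 and 12 were the high mutants, as they were for Scd2, and the log2 fold change was 0.30 (SE 0.37, edgeR p = 0.43).

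In the mean level of the sterol enzymes the mice differed from each other more than the groups did. The mean level of the 18 sterol enzymes, on the log2 scale and relative to the 9 mice, was -0.04, 0.41, -0.13, -0.21 and 0.11 in mutants 6, 7, 8, 10 and 12, against -0.004, -0.18, -0.06 and 0.11 in controls 1, 2, 3 and 4. The group means of that level were 0.03 ± 0.25 in mutants (SD, n = 5) and -0.04 ± 0.12 in controls (SD, n = 4). Mutant 7 was above the mean of the 9 mice in 17 of 18 enzymes and was the highest mouse in 9 of them, while it was the highest mouse in 16.0% of all tested genes. Mutant 10 was the lowest mouse in 5 enzymes, control 2 in 4 and mutant 8 in 3.

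Both technical libraries of mutant 7 were high, at 0.43 and 0.36 for the mean of the 18 enzymes. Idi1 was at 37.6 and 32.1 CPM in them, Msmo1 at 15.7 and 12.1 CPM, Cyp51 at 12.9 and 9.94 CPM and Insig1 at 4.34 and 2.63 CPM. The median difference between the libraries of a mouse was 0.21 for the sterol enzymes and 0.24 for all tested genes, on the log2 scale, and the median SD between mice of a group was 0.27 for the sterol enzymes and 0.22 for all tested genes. The SD was larger among mutants than among controls for 16 of 18 sterol enzymes (88.9%), against 54.4% of all tested genes, and without mutant 7 for 14 (77.8%), against 49.7% of all tested genes. The 18 enzymes are measured in the same mice and are not independent, so these counts describe the libraries.

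**Figure D4:**
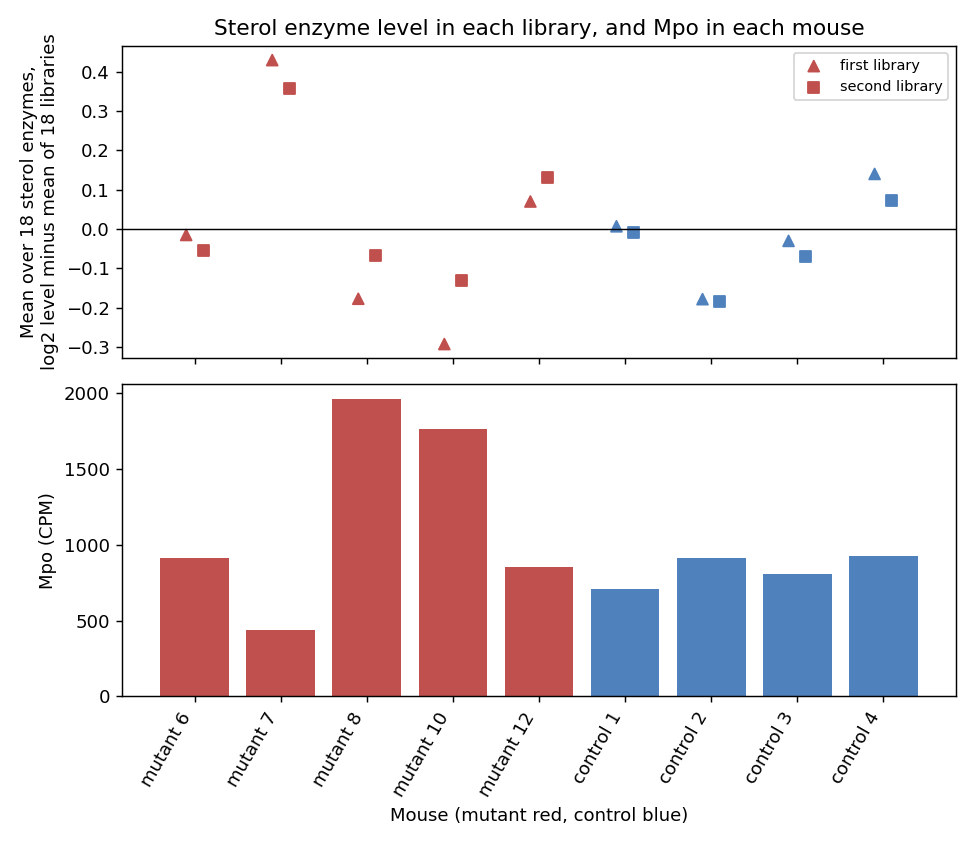
Upper panel, mean level of the 18 sterol enzymes in each technical library, as log2(CPM + 0.5) less the mean of the 18 libraries, with the first library of a mouse as a triangle and the second as a square; lower panel, Mpo in CPM in each mouse as a bar; mutant mice are left in red and control mice right in blue. Both libraries of mutant 7 lie highest, at 0.43 and 0.36, where Mpo is at 437 CPM. Both libraries of mutants 8 and 10, with Mpo at 1960 and 1760 CPM, lie below 0. So do both libraries of mutant 6, control 2 and control 3, with Mpo at 909, 909 and 809 CPM.

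Other measures differed between these mice as well. Mutant 7 had the deepest sequencing, with 25485975 counts and a mean sterol enzyme level of 0.41. Mutant 8 came next, with 24751326 counts and a mean sterol enzyme level of -0.13. With the log2 total count as a covariate the median log2 fold change of the sterol enzymes was -0.02, against 0.07 without it. The granule protease gene Ctsg was at 4630, 2670, 6160, 6450 and 2910 CPM in mutants 6, 7, 8, 10 and 12, against 2280, 2960, 3260 and 3480 CPM in controls 1, 2, 3 and 4. The granule peroxidase gene Mpo was at 909, 437, 1960, 1760 and 854 CPM in mutants 6, 7, 8, 10 and 12, against 707, 909, 809 and 926 CPM in controls 1, 2, 3 and 4. The mutants highest in both granule genes, 8 and 10, were the mutants lowest in the sterol mean, and mutant 7, highest in the sterol mean, was lowest in both among mutants. For Mpo and Ctsg the controls did not show this order. Control 4 was highest of the controls in the sterol mean and in both genes. The further granule protease gene Elane was at 2190, 2250, 2290 and 1890 CPM in controls 1, 2, 3 and 4, lowest in control 4. Prtn3, another, was at 3940, 4560, 4800 and 4400 CPM in the same controls, highest in control 3. Among mutants, Elane and Prtn3 were also highest in mutants 10 and 8 and lowest in mutant 7. The part of depth or of granule stage in the sterol levels was not tested.

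Further genes of the pathway were taken as whole lists, and edgeR called 0 genes in each. Of 10 tested genes among other SREBP targets and sterol enzymes 4 were above 0 and 6 below, with a median of -0.02 and 1 with an unadjusted p under 0.05. That gene was Acss2, which makes acetyl-CoA from acetate, at 2.16 ± 1.03 CPM in mutants (SD, n = 5) and 3.83 ± 0.582 CPM in controls (SD, n = 4), a log2 fold change of -0.83 (SE 0.33, edgeR adjusted p = 0.431). Tmem97, a sterol-regulated membrane protein, was at 0.18 (SE 0.09, edgeR adjusted p = 0.529).

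The isoprenoid branches, which draw farnesyl diphosphate away from sterols into ubiquinone, dolichol and protein prenylation, held 9 tested genes with a median log2 fold change of 0.19, and 2 of them had an unadjusted p under 0.05, both higher in mutants, against 4.96% of all tested genes. Pdss2, a subunit of the synthase of the ubiquinone side chain, had 6.22, 7.79, 6.47, 6.14 and 6.64 CPM in mutants 6, 7, 8, 10 and 12, against 5.69, 4.63, 4.43 and 4.98 CPM in controls 1, 2, 3 and 4. Every mutant was above every control, as for 1.87% of all tested genes, at a log2 fold change of 0.44 (SE 0.14, edgeR p = 0.00991, adjusted p = 0.351). Ggps1, the synthase of geranylgeranyl diphosphate, had 10.3, 10.6, 9.15, 8.48 and 7.06 CPM in mutants 6, 7, 8, 10 and 12, against 5.69, 7.6, 7.42 and 6.1 CPM in controls 1, 2, 3 and 4. All mutants but mutant 12 were above every control, at a log2 fold change of 0.45 (SE 0.16, edgeR p = 0.0144, adjusted p = 0.383).

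LXR genes with genes of esterification and uptake held 8 tested genes, 2 above 0 and 6 below, with a median of -0.13 and none with an unadjusted p under 0.05. The LXR gene Nr1h2 was at 119 ± 19.9 CPM in mutants (SD, n = 5) and 136 ± 10.5 CPM in controls (SD, n = 4). Npc2, which hands cholesterol out of the lysosome, was at 270.0 ± 8.36 CPM in mutants and 300.0 ± 35.3 CPM in controls. Fatty acid elongation, activation and glycerolipid genes held 11 tested genes with a median of -0.02, among them the acyltransferase gene Agpat3 at 0.48 (SE 0.21, edgeR adjusted p = 0.488) and the triglyceride synthesis gene Dgat2 at -0.16 (SE 0.16).

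Genes of the G2 and M phases were counted beside these because growing cells need membrane lipid. Of 15 tested genes 15 were above 0, with a median of 0.23, and 9 had an unadjusted p under 0.05, all higher in mutants, while 0 were called. Of all tested genes 51.7% were above 0 and 4.96% were higher at an unadjusted p under 0.05. The 15 genes are measured in the same mice and are not independent, so these counts describe the libraries. The part of sequencing depth in this list was not tested. Aurkb, a mitotic kinase, was at 174 ± 8.43 CPM in mutants (SD, n = 5) and 138 ± 16.7 CPM in controls (SD, n = 4), a log2 fold change of 0.33 (SE 0.10, edgeR adjusted p = 0.307), and the kinetochore gene Ndc80 was at 0.29 (SE 0.09, edgeR adjusted p = 0.311). The mean G2 and M level, on the log2 scale and relative to the 9 mice, was 0.17, 0.07, 0.15, 0.18 and -0.07 in mutants 6, 7, 8, 10 and 12, against -0.20, -0.13, -0.21 and 0.02 in controls 1, 2, 3 and 4. Mutant 7, the mouse with the highest sterol mean, was not the highest in this list.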

How the data were processed

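RNA of sorted leukemia stem cells was read as 3′ ends in 18 libraries. The authors deposited a table of estimated counts per gene, not scaled; 11.3% of its values were not whole. Per the submitters' processing notes, the tools were Salmon 1.3, bcl2fastq and FastQC, with the GRCm38 build. Strand, molecular identifiers and the annotation release are not stated there. The first 18 characters of an ID were looked up in GENCODE mouse release 21, and 54094 of 54347 IDs had a symbol.

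Counts were summed per mouse over its technical libraries and rounded to whole numbers. The test was edgeR's quasi-likelihood F-test (version 4.0.16, R 4.3.3) on genes kept by filterByExpr at a minimum count of 10, with TMM normalization and genotype as the only term. An SE is the unshrunk log2 fold change divided by the square root of F. Totals ran from 3825500 to 15071673 counts per library. Floors cover counting error only. Nothing in the labels pairs mutant with control mice, and whether the mice share litters or days is not given. Alternatives used DESeq2 1.42.0 and limma 3.58.1 among others. The scripts were tested on simulated data.

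The members and lists were chosen with earlier results of these data known. Values in every mouse are given for members with an unadjusted p under 0.05, regulators, exporters, fatty acid genes and the 6 sterol enzymes with the smallest p; 2 genes are named per further list. Msmo1, Cyp51 and Stard4 are shown in every mouse as genes chosen after their values were seen, as were the single cell type markers given with values.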

Additional observations from a re-analysis of the deposited data

Results flagged for a closer look

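In 78 groups of 4 or 5 mice, 1 group per named gene and genotype, the highest or lowest mouse was compared with the others of its group by the size of its gap relative to the whole range. The gap was past the 95% critical value in 7 groups. Chance gives about 1 in 20 independent groups. These groups share the same mice and are not independent, so no excess is read from the count.

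Mutant 7 stood above the other 4 mutants in 3 genes. Idi1 was at 35.5 CPM in it, against 14.7 to 18.6 CPM in the others. Msmo1 was at 14.3 CPM, against 6.11 to 7.12 CPM. Insig1 was at 3.65 CPM, against 0.716 to 1.47 CPM. Among controls, Srebf1 was at 73.1 CPM in control 4, against 60.3 to 62.2 CPM in the other 3. Fasn was at 64.6 CPM in control 3, against 48.2 to 49.0 CPM. Elovl6 was at 6.4 CPM in control 1, against 3.74 to 4.15 CPM, and Ndc80 at 49.5 CPM in control 1, against 44.4 to 45.0 CPM.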

How the results depend on the processing

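No member was called under any of 21 alternatives (12 settings and the leaving out of each of 9 mice), and the lowest adjusted p of a member was 0.0532 (Abcg1, DESeq2). Of 29 tested members 9 kept the sign of their fold change throughout: Abcg1, Acaca, Dhcr7, Hsd17b7, Mvk, Scap, Scd2, Srebf1 and Srebf2. The number of genes called in the whole table, 9 in the values reported, was 90 with DESeq2, 21 with no low-count filter, 0 at a mean of at least 10 CPM, 0 in the first and 3 in the second technical libraries, 0 without the first library of mutant 7, 0 with the log2 total count as a covariate, 58 with limma-voom on 18 libraries with a technical replicate block, and 0 to 7 with a mouse left out (0 without each mutant but mutant 6, which left 7; without controls 1, 2, 3 and 4, 2, 4, 0 and 0). The cause was not tested. The median log2 fold change of the sterol enzymes, 0.07, lay between -0.0263 (without mutant 7) and 0.145 with a mouse left out, and that of fatty acid genes, -0.12, between -0.165 and -0.0582. The fatty acid median turned to 0.0344 in the first technical libraries and was -0.256 in the second, and the sterol median was -0.0176 with the covariate. The technical replicate block gave 0.0466 for the sterol median. No paired analysis of mutant with control mice was possible because the groups share no mouse number.

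The other 20 members changed sign somewhere, at values up to 0.305 in size. In the first technical libraries these were Tm7sf2 (0.104), Fasn (0.137), Acat2 (0.0837), Pmvk (-0.208), Fdft1 (-0.177), Sqle (-0.103) and Ebp (0.0049), and in the second Lss (0.012), Nsdhl (-0.0346), Msmo1 (-0.000468), Cyp51 (-0.094) and Mvd (0.0224). With the covariate they were Stard4 (-0.0902), Insig2 (-0.00586), Sc5d (-0.1), Msmo1 (-0.305), Cyp51 (-0.0331), Idi1 (-0.0707) and Fdps (-0.0485). Limma-voom gave Acat2 0.0447 and Sc5d -0.0142, and the replicate block gave Msmo1 -0.000465, Acat2 0.0221 and Sc5d -0.0146. Without a filter Tm7sf2 was at 0.00786 and Acat2 at 0.00827, and at 10 CPM Sc5d was at -0.00118. Sc5d was at -0.00762 with upper-quartile factors. Without the first library of mutant 7, Msmo1 was at -0.0403 and Sc5d at -0.0585.

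With 1 mouse left out, the ranges of the members that changed sign were -0.147 to 0.295 (Acat2), -0.0037 to 0.189 (Hmgcs1), -0.0487 to 0.108 (Pmvk), -0.0469 to 0.353 (Idi1), -0.0159 to 0.164 (Fdft1), -0.0494 to 0.234 (Sqle), -0.148 to 0.0665 (Lss), -0.179 to 0.341 (Cyp51), -0.0385 to 0.0279 (Tm7sf2), -0.231 to 0.154 (Msmo1), -0.135 to 0.0849 (Ebp), -0.105 to 0.101 (Sc5d), -0.864 to 0.0453 (Insig1), -0.0241 to 0.189 (Stard4), -0.183 to 0.00666 (Fasn) and -0.0181 to 0.501 (Elovl6). Insig1, Mvd, Sqle and Elovl6 were among the tested members with the fewest counts, and depth leaves Abca1 and Scd1 without a fold.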

Other observations

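The fold changes of Srebf2 and Srebf1 had opposite signs. The ratio of Srebf2 to Srebf1 CPM was 0.933, 1.01, 0.776, 1.06 and 0.957 in mutants 6, 7, 8, 10 and 12, against 0.76, 0.691, 0.76 and 0.744 in controls 1, 2, 3 and 4. Every mutant was above every control, by 0.35 on the log2 scale between group means (2-sided exact permutation test over 126 groupings of the mice, p = 0.0159, with 0.00794 the smallest p that these groupings can give). This ratio was chosen after the values and their opposite signs had been seen, so the p is descriptive and gives no support. No other ratio was computed, so the share of gene pairs with such a separation is not known. Library by library the groups overlapped: the lowest mutant libraries were at 0.771 and 0.782, and the highest control libraries at 0.838 and 0.813. A ratio does not show which of its genes differed, and neither passed the test on its own.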
